A study of Drosophila melanogaster with 4 samples.

Results

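The Polycomb group genes followed here encode subunits of Polycomb repressive complex 1 (PRC1) and proteins that act with it. The 9 genes, chosen by name, were Pc, Psc, Su(z)2, ph-p, ph-d, Sce, Scm, Asx and sxc. The annotation of the arrays names 12057 genes by a probe. For 6 of the 9 (Pc, Psc, Sce, Scm, Asx and sxc) 1 probe each was named. All 6 had a value in both biological replicates, as did 10041 genes in all. The other 3, Su(z)2, ph-p and ph-d, were not named by a probe of the annotation used here and have no value below.

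The arrays compared RNA of whole trx mutant larvae with pooled RNA of whole wild-type larvae, both of the third instar and both raised on food with bromophenol blue, which stains the gut and was used for staging. Mutants carried the alleles trxE3 and trxB11 over one another in a w1118 background, and the wild type was an isogenic w1118 line. Chromosomes X, Y and 2 of the mutant stocks came from the isogenic line, whereas chromosome 3, which carries the trx alleles, is not among those listed as transferred. There were 2 biological replicates of mutant RNA, extracted separately, and each was hybridized on 2 arrays with the dyes Cy3 and Cy5 swapped. The 2 arrays of a replicate hold the same amplified RNA and were averaged, so that n = 2 throughout, and no source says that the extractions came from separate cultures. Each p therefore measures the spread between extractions, which may be technical. The wild-type pool was on every array, so the spread among wild-type larvae is in no error given here. Each value is the log2 of the mutant signal over the wild-type signal, so that transcripts more abundant in the mutant lie above 0 and a value of 1 is a 2-fold difference.

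PRC1 keeps genes such as those of the Hox clusters silent in cells where they were not switched on early in development, while trithorax group proteins, TRX among them, keep them active where they were. Its core holds Polycomb, which binds the histone mark laid down by PRC2, a polyhomeotic protein, a RING finger protein of the Psc type and the RING protein Sce, and Sce with its RING partner attaches ubiquitin to histone H2A. Mutations in trx and in Polycomb group genes are known for opposite changes of segment identity.

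Between 11199 and 12775 spots had a value on an array. Pearson's r was 0.904 and 0.881 across probes between the 2 arrays of a replicate, and between 0.710 and 0.824 across arrays of different replicates. The mutated gene itself, trx, had values on 3 arrays, which were 0.22 in replicate 1 with the mutant in Cy5, and 0.13 in Cy3 and 0.28 in Cy5 in replicate 2. Its mean of 0.21 (standard error 0.0473, limma, adjusted p = 0.0859) lay above 0, so a lower level of trx RNA, which would have checked the labels, was not seen, and where the probe lies relative to the lesions is not given in the sources used here.

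Of the 6 Polycomb group genes measured, 0 were changed at least 2-fold at an adjusted p under 0.05 (limma's moderated test of the replicate means against 0, Benjamini-Hochberg adjustment over 10041 genes), thresholds that 4.09% of all genes tested passed (1.57% higher and 2.52% lower). Psc passed the adjusted p at a smaller change and was lower in the mutants, which makes 1 of 6 at any fold beside 14.7% of all genes (6.49% higher and 8.18% lower). At an unadjusted p under 0.05 there were 3, Psc, Sce and sxc, beside 38.2% of all genes. The 6 genes had a median log2 change of -0.066, with 2 above 0 and 4 below, and the median over all genes was -0.020. The median size of their changes was 0.15, beside 0.16 for all genes.

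**Figure D1:**
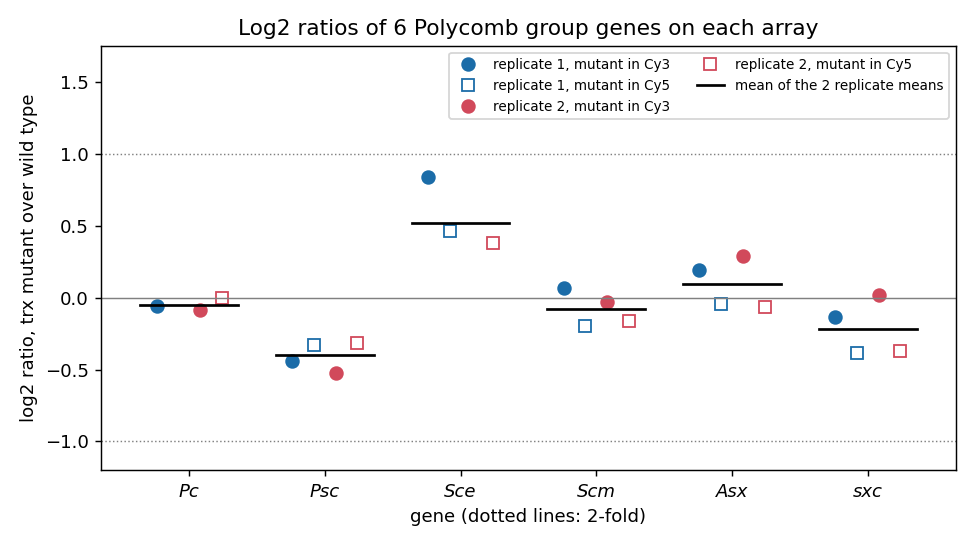
Log2 ratio of trx mutant over wild type for 6 Polycomb group genes on each array, with color for the biological replicate, filled circles for arrays with the mutant in Cy3, open squares for Cy5, and a bar for the mean of the replicate means. Psc lies below 0 on 4 of 4 arrays and Sce above 0 on 3 of 3, and no value reaches the dotted 2-fold lines.

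Psc (Posterior sex combs, on chromosome arm 2R) encodes a RING finger subunit of PRC1 that compacts nucleosomes and pairs with Sce. Its log2 ratios in replicate 1 were -0.44 on the Cy3 array and -0.33 on the Cy5 array, named by the dye of the mutant, and in replicate 2 they were -0.53 and -0.31. All 4 arrays were below 0, and the replicate means of -0.38 and -0.42 were nearly equal. The mean change was -0.40 (standard error 0.0482, 95% interval from -0.56 to -0.24, limma, adjusted p = 0.0418), which is 0.757 of the wild-type level with an interval from 0.678 to 0.846. Psc ranked 2030 of 10041 genes by size of change. The adjusted p was between 0.0585 and 0.0664 when array 1, array 3 or array 4 was left out, which ended the call, and it was 0.0390 without array 2. The change was below 0 in each case.

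Sce (Sex combs extra, also called dRing, on 3R) encodes the RING protein that carries the histone H2A ubiquitin ligase activity of PRC1. In replicate 1 its log2 ratios were 0.84 with the mutant in Cy3 and 0.47 in Cy5, and in replicate 2 the single value, in Cy5, was 0.38. All 3 values were above 0, and the one in Cy3 was the highest. The mean over replicates was 0.52 (standard error 0.0933, 95% interval from 0.21 to 0.83, limma, adjusted p = 0.0662), a level of 1.43 times wild type with an interval from 1.16 to 1.77, and it did not pass the adjusted threshold. With the mutant in Cy5, the orientation measured in both replicates, the mean was 0.42 (limma, adjusted p = 0.0555). Because replicate 2 lacks its Cy3 array for this gene, its dye difference does not cancel in the mean.

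These RING proteins form a dimer in PRC1, and on the arrays where both had a value their ratios lay on opposite sides of 0. The ratio of Sce exceeded that of Psc by 1.28 on array 1, with the mutant in Cy3. In Cy5 it did so by 0.80 on array 2 and by 0.70 on array 4. On array 1 Sce was higher and Psc lower than on array 2, which holds the same RNA. Dye and array cannot be told apart in this pair, and Sce has no value on array 3. This pair was singled out after its values were seen, and no test was made of it.

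Pc (Polycomb, on 3L) encodes the chromodomain protein that reads the mark of PRC2. It had a log2 ratio of -0.058 in replicate 1, on the Cy3 array alone, and of -0.089 in Cy3 and -0.0049 in Cy5 in replicate 2. These values are all slightly below 0 and close together. The mean was -0.052 (standard error 0.0472, 95% interval from -0.21 to 0.10, limma, adjusted p = 0.470), so the interval covers 0.865 to 1.07 times the wild-type level. Without array 3 the mean was -0.031. Among the 10041 genes the size of this change ranked 8087.

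**Figure D2:**
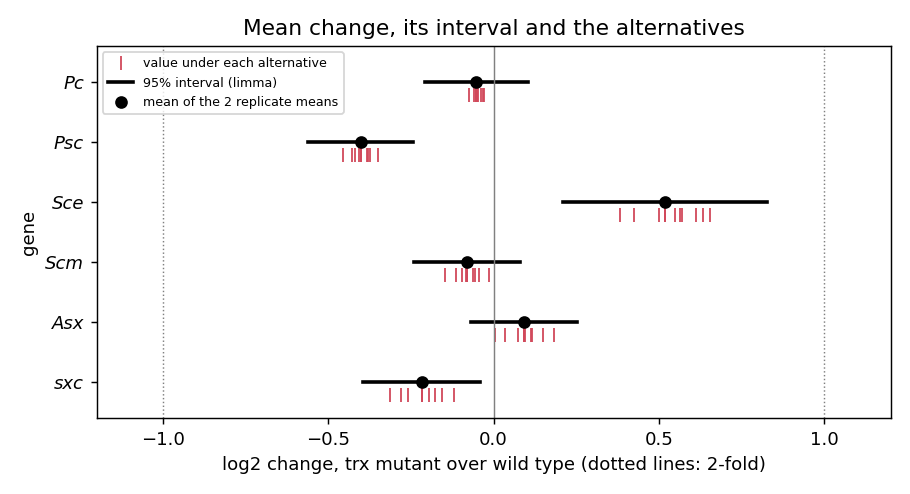
Mean log2 change of each gene (point), its 95% interval from limma (black line) and its value under each alternative setting (red ticks), in trx mutant over wild-type larvae. The intervals of Psc, Sce and sxc lie to one side of 0, those of Pc, Scm and Asx span it, and all 6 lie inside the dotted 2-fold lines.

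Scm (Sex comb on midleg, on 3R) encodes a protein with a SAM domain that binds polyhomeotic and links PRC1 with PRC2. Its log2 ratios were 0.068 in Cy3 and -0.19 in Cy5 in replicate 1, and -0.027 and -0.17 in replicate 2. Values were lower on both Cy5 arrays than on both Cy3 arrays, and 3 of 4 were below 0. The mean was -0.080 (standard error 0.0481, 95% interval from -0.24 to 0.080, limma, adjusted p = 0.315). It was -0.014 without array 2, -0.045 without array 4 and -0.15 without array 1.

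Asx (Additional sex combs, on 2R) is not a PRC1 subunit but the partner of the enzyme Calypso, with which it removes ubiquitin from histone H2A. Its log2 ratios were 0.19 in Cy3 and -0.044 in Cy5 in replicate 1, and 0.29 and -0.066 in replicate 2. Both Cy3 arrays were above 0 and both Cy5 arrays below it, so that the sign of the ratio followed the dye in each replicate. The mean of 0.092 (standard error 0.0485, 95% interval from -0.068 to 0.25, limma, adjusted p = 0.267) averages over this difference. Without array 3 it was 0.0034 and without array 1 it was 0.034, both Cy3 arrays, and without array 2 or array 4 it was 0.15 or 0.18.

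sxc (super sex combs, on 2R) encodes the O-GlcNAc transferase Ogt, which attaches a sugar to polyhomeotic and many other proteins. Its log2 ratios were -0.14 in Cy3 and -0.38 in Cy5 in replicate 1, and 0.017 and -0.37 in replicate 2. The Cy5 arrays nearly coincided and were the lower, and 3 of 4 values were below 0. The mean was -0.22 (standard error 0.0533, 95% interval from -0.39 to -0.041, limma, adjusted p = 0.0974), a level of 0.860 times wild type. Without array 4 it was -0.12 (limma, adjusted p = 0.502), and without array 3 it was -0.31 (limma, adjusted p = 0.0711). With the dye as a term in the fit over 4 arrays, the same mean had an adjusted p of 0.0267 (limma), a fit that takes the dye-swapped arrays as independent samples.

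The dye differed in its effect among the genes. In Psc, Scm, Asx and sxc, which lacked no array, the difference between the Cy3 and the Cy5 array had one sign in both replicates, as in 66.4% of the 7262 genes measured on 4 arrays. For Scm it was 0.26 and 0.14, for Asx 0.23 and 0.36 and for sxc 0.25 and 0.39, with the higher ratio in Cy3. For Psc it was -0.11 and -0.21, with the higher ratio in Cy5. Over all 7262 genes the median size of this difference was 0.12 in replicate 1 and 0.14 in replicate 2.

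In each of the 6 genes the replicate means differed by less than the dye-swapped arrays of a replicate did. For Pc and Sce only 1 replicate has both dyes. The measures are unlike, since a replicate mean averages up to 2 arrays and a dye difference sets single arrays side by side. The same order held over the 7262 genes measured on 4 arrays, with medians of 0.097 for replicate means and 0.12 and 0.14 for dyes. The median difference between the replicate means of the 6 genes was 0.037, beside 0.098 over all genes tested. The widest was that of Sce, 0.27, and the next was that of sxc, 0.084. For Sce, replicate 2 has its Cy5 array alone, so this difference also holds the dye. On the Cy5 arrays Sce had 0.47 in replicate 1 and 0.38 in replicate 2. Since limma moderates each standard error toward a shared prior (prior SD 0.0830), those of Pc, Psc, Scm and Asx, between 0.0472 and 0.0485, rest mostly on that prior, and they leave out the difference between dyes.

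**Figure D3:**
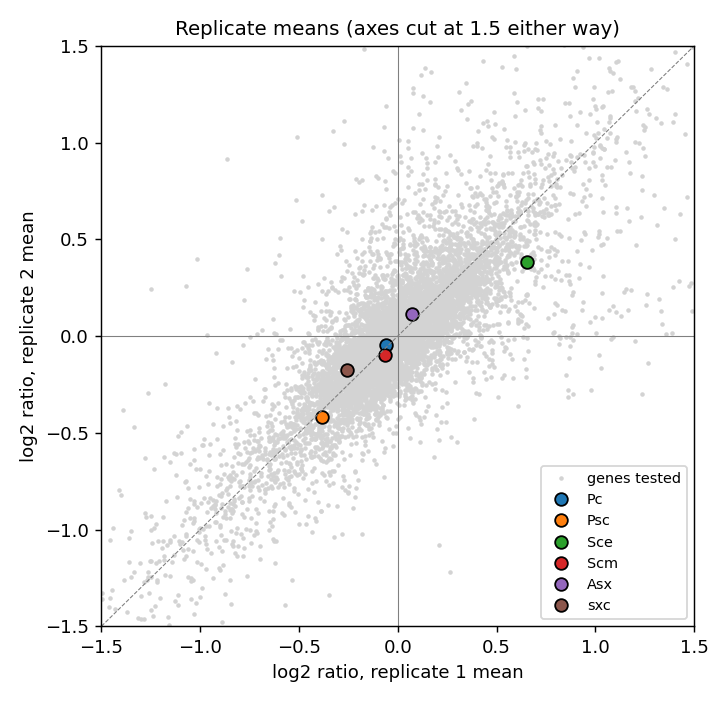
Mean log2 ratio in replicate 1 (horizontal) against replicate 2 (vertical) for the genes tested (grey) and for 6 Polycomb group genes (colored); 377 genes lie outside the axes, which end at 1.5 either way. Pc, Psc, Scm, Asx and sxc lie near the dashed line of equal values, and Sce lies below it, at 0.65 and 0.38. The value of Sce in replicate 2 comes from its Cy5 array alone.

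Other genes of the Polycomb group were taken as a list of 25, of PRC2, of the DNA-binding Pho complex, of variant forms of PRC1, of the partner of Asx and of recruiting proteins. Of 18 tested, 0 were changed at least 2-fold (limma, adjusted p under 0.05) and at any fold 1 was higher and 1 lower, with a median of 0.10. Over all genes the shares were 4.09% at 2-fold, and 6.49% higher and 8.18% lower at any fold. The higher one was corto, which encodes a chromodomain protein known to interact with Polycomb and trithorax group proteins. It had 0.84 in Cy3 and 0.53 in Cy5 in replicate 1 and 0.99 and 0.68 in replicate 2, for a mean of 0.76 (standard error 0.0650, limma, adjusted p = 0.0299). The lower one was phol, a relative of the DNA-binding protein Pho, with a mean of -0.48 (standard error 0.0512, limma, adjusted p = 0.0371). Its ratios were -1.15 and -1.18 on the Cy3 arrays and 0.27 and 0.16 on the Cy5 arrays, so that the direction of phol depended on the dye.

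caly, which encodes Calypso, the partner of Asx, had a mean of 0.22 (standard error 0.0635, limma, adjusted p = 0.124). RYBP, which encodes a subunit of variant PRC1, had 0.33 on 3 arrays (standard error 0.0473, limma, adjusted p = 0.0502). These 2 genes were singled out after their values were seen, for their link to the proteins above. E(z), which encodes the enzyme of PRC2 that lays down the mark read by Pc, had -0.064 (standard error 0.0555, limma, adjusted p = 0.458) and was also singled out in this way.

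**Figure D4:**
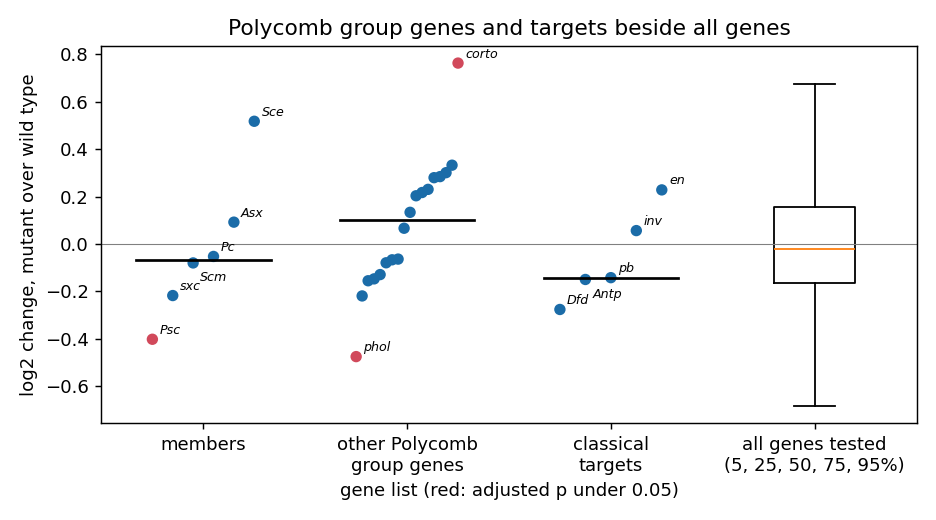
Mean log2 change of 6 Polycomb group genes, 18 other Polycomb group genes and 5 classical target genes (points, ordered by value, red at an adjusted p under 0.05; bars are medians), beside all 10041 genes tested (box for the quartiles, whiskers at 5% and 95%). Sce and Psc are the highest and the lowest of the 6, and both lie within the whiskers, which end at -0.68 and 0.68.

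Genes that Polycomb group proteins are known to keep silent were looked at as a list of 10, the Hox genes with engrailed and its neighbor invected. Of 5 tested, 0 were called at any fold (limma, adjusted p under 0.05, and 0 at least 2-fold), beside 14.7% and 4.09% of all genes. With 5 genes, a count of 0 says little beside these shares. The changes of the 5 ran from -0.28 for Dfd to 0.23 for en, named as the ends of the range. The 3 below 0 were the Hox genes tested, and the 2 above 0 were engrailed and invected. Of the Hox genes, pb had values on 2 arrays, with replicate means of 0.013 and -0.30. The study reports a decrease of most homeotic genes, smaller than its fold threshold. In whole larvae, fewer cells that express a gene and less RNA per cell cannot be told apart, for these genes and for the 6 above.

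Markers of tissues of the larva were taken as lists beside these values. Over all genes tested, 6.49% were higher and 8.18% lower at any fold (limma, adjusted p under 0.05), and 1.57% were at least 2-fold higher. Of 10 tested genes of DNA replication and division, 0 were called at any fold (median 0.086), and of 10 neuronal genes 0 were (median -0.0064). Of 11 genes of imaginal discs, 2 were higher and 0 lower at any fold (median 0.17, between -0.40 and 0.49). The median of the disc genes was 0.23 in replicate 1 and -0.017 in replicate 2. Of 4 germ line genes 0 were called (median -0.14). Storage protein and glue genes mark the fat body and the salivary gland, and of 3 tested in each list 1 was at least 2-fold higher. Lsp2 was higher, with 3.98 (standard error 0.0796, limma, adjusted p = 0.0142), and so was Sgs5, with 3.78, measured on the 2 Cy3 arrays alone (standard error 0.465, limma, adjusted p = 0.0431). The others were not called: Fbp1 had 0.27 and Fbp2 1.08 in the first list, whose median was 1.08, and Sgs1 had -0.12 and Sgs4 1.02 in the second, whose median was 1.02. The replicates differed widely in Fbp2, Sgs4 and Sgs5. The storage median, which is Fbp2, was 1.68 in replicate 1 and 0.48 in replicate 2. The glue median, which is Sgs4, was 1.85 and 0.20, and Sgs5 had 4.56 and 3.01. Fbp2 in replicate 2 and Sgs4 in replicate 1 rest on a Cy3 array alone. The replicates differed less in Fbp1, with 0.13 and 0.42, and in Sgs1, with -0.19 and -0.053. Lsp2 itself had 4.09 and 3.87. The part of tissue makeup or stage in the values of Psc and Sce was not tested. Ratios hold no level, so the presence of a tissue could not be read from them.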

How the data were processed

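RNA of trx mutant larvae and of a wild-type pool was hybridized on 4 two-color arrays of long oligonucleotides. The deposited values are log2 ratios per spot. The authors scanned with GenePix Pro, removed spots below quality thresholds, corrected background (normexp, limma), normalized within arrays (OLIN) and scaled the arrays by median absolute deviation; the submitters' processing notes name limma, and its version is not given in the sources used here. Arrays of opposite dye orientation correlated above 0, so no sign was changed. Direction and log base were taken from the study's own lists of higher and lower genes. No intensities were used, and precision is limited by the number of arrays.

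Of 16416 probes, 13163 name 1 gene in the platform annotation, 102 name several or none and 3151 are not listed there. Of those naming 1 gene, 12652 matched the NCBI gene table (Release 6 plus ISO1 MT), used for symbols, chromosome arms and gene order. Probes were averaged per gene, then arrays per replicate, and a gene with a value in both replicates was tested (limma 3.58.1, R 4.3.3, prior degrees of freedom 1.80). A missing array leaves a replicate mean on 1 array, as for Pc and Sce. The procedure was run on simulated replicate means without dye differences or missing arrays. Their true changes were absent or larger than those of the 6 genes, so the run does not bear on changes of that size. The members and lists were chosen with earlier results of these data known. Every member was named, and of the other lists those changed at least 2-fold at an adjusted p under 0.05, plus the highest and the lowest other Polycomb group gene with 4 values. Genes named beyond this rule (caly, RYBP, E(z), Dfd, en, pb, the other storage and glue genes and the neighbors) were chosen after their values were seen. Alternatives were other treatments of arrays, dye, scaling, probes and prior, each array or replicate left out, and other thresholds.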

Additional observations from a re-analysis of the deposited data

How the results depend on the processing

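The direction of Pc, Psc, Sce, Scm, Asx and sxc was the same under all 80 alternatives that could be run on them, 68 of which had a test. At 61 of these 68 the gene stayed on its side of an adjusted p of 0.05 (limma). Many of the 80 could not change a direction. Each gene has 1 probe, so the setting of 1 probe per gene repeats the main value, as does the robust prior. For genes with 4 values, the fits over 4 arrays also repeat it, and no setting took 1 dye alone. By dye, Asx averaged 0.24 in Cy3 and -0.055 in Cy5, and Scm 0.020 and -0.18. The averages of Psc and sxc were below 0 in both dyes. With 1 array or replicate left out, the change of Psc ran from -0.46 to -0.35, and it lost the call without array 1, array 3 or array 4 (adjusted p between 0.0585 and 0.0664). Sce passed with the 4 arrays as independent samples (0.56, adjusted p = 0.0203), with the biological replicate as a random block (0.57, adjusted p = 0.0160) and with a dye term (0.63, adjusted p = 0.00717). Sce lacks array 3, so these 3 fits weigh replicate 1 more than replicate 2. In the fit with a dye term, its Cy3 side is the single value of 0.84. Over the alternatives of Sce the adjusted p ran from 0.00717 to 0.0830. sxc passed with a dye term alone (-0.22, adjusted p = 0.0267), with a range from 0.0267 to 0.502. trx passed with independent arrays and with the random block (0.21 in both). These fits count arrays of the same RNA separately, and the consensus correlation within a replicate was -0.112. At any fold, 1 of the 6 genes and 1473 of all genes passed the adjusted p, and 3 and 3833 passed an unadjusted p, against 0 and 411 at 2-fold. The number of genes called at 2-fold lay between 353 and 509 in the other fits. Pc and Sce lack an array, so requiring all 4 left them out, and without array 1 (Pc) or array 4 (Sce) they had no value in 1 replicate. Differences between ph-p and ph-d and between Psc and Su(z)2, intended as values, were not computed, since 3 of these genes were not named by a probe.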

Other observations

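Since the study is about runs of neighboring genes, the 3 tested genes on each side of each of the 6 Polycomb group genes were looked up, a set chosen after the values of the 6 were known. Of these 36 neighbors, 2 were changed at least 2-fold (limma, adjusted p under 0.05; 4.09% of all genes), and at any fold 4 were higher and 1 lower (6.49% and 8.18% of all genes). Their median log2 change was 0.054.

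Beside Psc, Mdr49, which encodes a transporter of the multidrug resistance family, had 2.34 in Cy3 and 2.30 in Cy5 in replicate 1 and 2.33 in replicate 2 (mean 2.33, standard error 0.0472, limma, adjusted p = 0.0142). It lies 3 tested genes away, and its change was opposite in sign to that of Psc. CG13323, the next tested gene on the other side, had 2.42 in replicate 1 and 0.62 in replicate 2 (mean 1.52, standard error 0.537, limma, adjusted p = 0.160). The replicates differ widely there, while those of Psc do not.

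Near Pc, the cuticle protein gene Cpr78Cc fell, with -1.82 in replicate 1 and -2.23 in replicate 2 (mean -2.03, standard error 0.130, limma, adjusted p = 0.0233). The genes directly on either side of Pc, CG7632 with -0.038 (standard error 0.0521, limma, adjusted p = 0.622) and Tsr1 with 0.12 (standard error 0.0521, limma, adjusted p = 0.202), were near 0, as Pc was. Tbc1d8-9, the tested gene beyond Tsr1, was higher, with 0.34 (standard error 0.0477, limma, adjusted p = 0.0487). Near Sce, ALiX had 0.60 (standard error 0.0555, limma, adjusted p = 0.0317). Beside sxc, d4, which lies next to it among tested genes, had 0.44 (standard error 0.0574, limma, adjusted p = 0.0451), opposite in sign to sxc. Of the 12 neighbors of Scm and Asx, 0 were called at any fold.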
